A study of Mus musculus with 8 samples.

Results

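Fgf21 and G6pc are liver genes of fasting energy metabolism, and each is read by 1 probe among the 33012 gene probes of a single-colour Applied Biosystems mouse array. The 2 probes were chosen by their RefSeq accessions, taken without version numbers (probe 860625 for Fgf21, probe 333144 for G6pc). The choice of these genes was made with earlier results of the same arrays known. All 8 arrays measured total liver RNA of male FVB/N mice aged 3 months, in 4 groups of 2 arrays. The groups were wild type (WT), mice lacking Abcb4 (KO), KO mice given norUDCA for 3 days, and KO mice given norUDCA for 4 weeks. Abcb4 is the transporter that moves phospholipid into bile, and its loss in mice leads to bile duct injury. norUDCA is a derivative of ursodeoxycholic acid with a shortened side chain. No WT mice given norUDCA were among the samples, so drug and knockout were not crossed. The sources used here give neither the dose nor whether the mice had been fed or fasted at sampling. For the 4-week group, the file names state a shorter treatment than the titles, which were followed.

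FGF21 is a hormone that the liver secretes in fasting and under metabolic stress. It signals through FGF receptors together with the co-receptor beta-Klotho, and PPAR alpha and the stress factor ATF4 are known to raise its transcription. G6pc encodes the catalytic subunit of glucose-6-phosphatase, which releases free glucose at the last step of both gluconeogenesis and glycogen breakdown. Fasting hormones raise G6pc transcription, insulin lowers it, and hepatocytes are its main site in the liver.

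The promoters of the genes are shown because Fgf21 and G6pc are both known as genes controlled through these upstream stretches. RefSeq (GRCm38.p6) places Fgf21 at chr7:45613890-45615490 on the minus strand and G6pc at chr11:101367716-101377903 on the plus strand. The 250 bases upstream of each start, at chr7:45615491-45615740 and chr11:101367466-101367715, read 5′ to 3′ on the strand of the gene. Capitals mark matches to the motifs named after the sequences.
Fgf21: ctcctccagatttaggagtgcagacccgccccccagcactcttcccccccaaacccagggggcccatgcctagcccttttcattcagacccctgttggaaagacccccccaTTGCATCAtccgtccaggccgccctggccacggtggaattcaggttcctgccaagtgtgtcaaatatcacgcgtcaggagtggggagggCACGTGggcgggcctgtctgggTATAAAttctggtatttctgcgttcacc
G6pc: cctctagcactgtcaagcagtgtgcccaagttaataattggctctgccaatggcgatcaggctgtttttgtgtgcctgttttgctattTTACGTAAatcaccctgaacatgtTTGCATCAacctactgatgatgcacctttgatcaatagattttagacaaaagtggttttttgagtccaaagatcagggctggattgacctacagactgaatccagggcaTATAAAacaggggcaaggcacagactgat
TATAAA, the TATA box, began at position -28 of Fgf21 and -29 of G6pc, counted back from -1 at the base before the start. Searched on the gene's strand, it was in 7.59% of 32851 mouse windows of this length. TTGCATCA (or TGATGCAA), the letters of a composite site that C/EBP and ATF4 are known to bind, began at -139 in Fgf21 and -138 in G6pc, and was in 0.791% of windows on either strand. Both motifs together were in 25 windows (0.0761%). CACGTG, the E-box, was at -50 of Fgf21 alone of these 2 windows (6.02% of windows). TTACGTAA was at -162 of G6pc alone (0.113%). TGACGTCA (1.55%), TGTTTAC or GTAAACA (3.17%) and AGGTCA repeated after any 1 base (0.0335%), the PPAR element, searched on both strands, were in neither window. The motifs were picked after the sequences had been read, and a match is a description of the letters, not a binding site. Only these exact letters were searched, so a missing match does not show that a window lacks a site of that kind. The reference is of strain C57BL/6J, not FVB/N.

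Values are the log2 of the deposited signal after quantile normalization between arrays, and a probe is called detected on an array where its signal over noise is at least 3. Tests are limma fits over 16728 tested probes, with all 8 arrays sharing an estimate of spread, and p-values are two-sided and adjusted by Benjamini-Hochberg over all tested probes, with a threshold of 0.05. The 8 arrays limit the precision. Detected probes made up 33.3% to 47.9% of gene probes per array, with the lowest share on WT replicate 1. That array also had the lowest 75th percentile of signal (397, against 644 to 1512 on the other arrays). Replicate arrays correlated at 0.935 in WT and 0.963 to 0.976 in the other groups. The positive control spots were dimmer on both WT arrays (median signal 1691 and 2062) than on the 6 KO arrays (6104 to 7913). The part of this in the differences from WT was not tested. No named probe stands for Abcb4, so the deleted gene could not serve as a check of genotype. Replicates are known only from their titles and may share an animal, so the spread behind each p-value may be technical. Each comparison with KO shares the same 2 KO arrays, and each with WT the same 2 WT arrays.

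Fgf21 was bright on both WT arrays and near the noise on all 6 KO arrays. The deposited signal was 2458.95 and 675.46 in WT. In untreated KO it was 58.8 and 108.21, after 3 days of norUDCA 116.69 and 32.58, and after 4 weeks 81.89 and 115.89. The 58.8 is the noise of that spot, listed in place of a lower signal. The lower WT array thus stood above every KO array, treated or not. Signal over noise was 22.2 and 16.35 in WT, but -0.73 and 1.08 in KO, 3.09 and 1.16 after 3 days, and 1.89 and 3.31 after 4 weeks. Fgf21 was therefore detected on both WT arrays, on neither untreated KO array and on 1 of 2 arrays at each treatment length, where it was just over the limit.

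**Figure D1:**
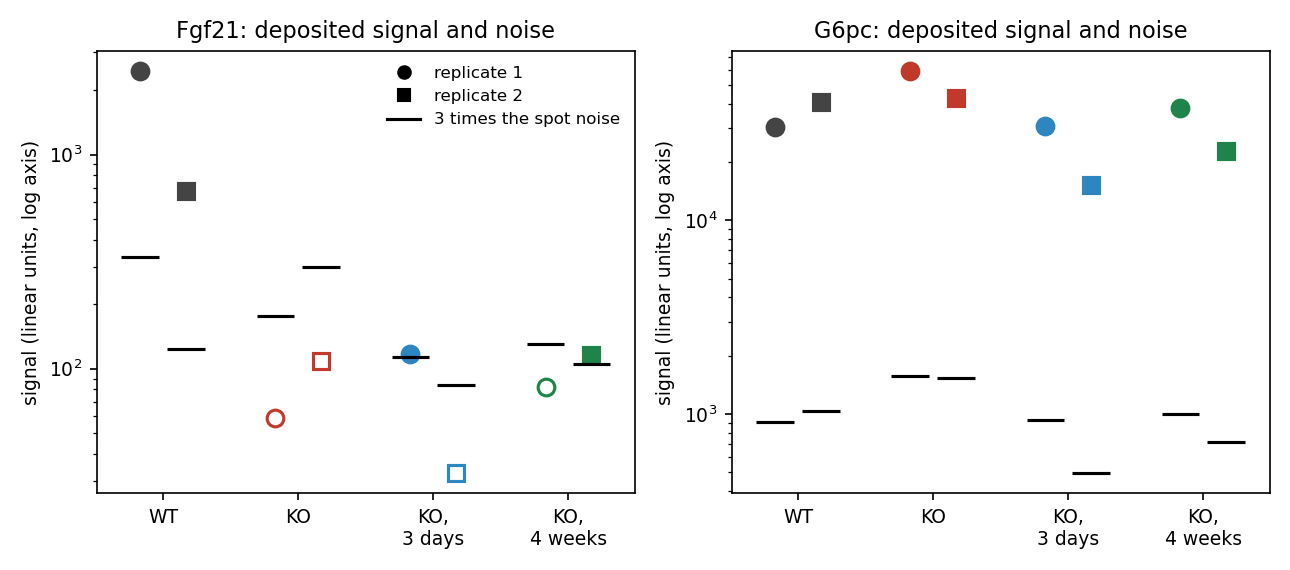
Deposited signal (vertical axis, log scale, linear intensity units) of Fgf21 (left) and G6pc (right) on each of the 8 arrays by group, with a black bar at 3 times the noise of that spot. Filled points are detected and open points are not, and circles and squares are replicates 1 and 2. Fgf21 stood far above the bar on the 2 WT arrays and was beside or below it on the other 6, whereas G6pc was far above it on all 8.

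On the log2 scale, Fgf21 was 12.58 and 9.98 in WT, 5.96 and 6.45 in KO, 6.98 and 5.14 after 3 days, and 6.17 and 6.70 after 4 weeks. The mean was 11.28 ± 1.84 (SD, n = 2) for WT and 6.21 ± 0.35 for KO, where the value of 5.96 is the listed noise. With norUDCA the mean was 6.06 ± 1.30 after 3 days and 6.43 ± 0.37 after 4 weeks. From high to low, the order was WT, KO given norUDCA for 4 weeks, untreated KO and KO given norUDCA for 3 days, and the 3 KO groups overlapped. The WT arrays themselves differed by 2.60 log2 (6.06-fold), a gap exceeded by 3.74% of tested probes. The ratio of their deposited signals (2458.95 and 675.46) was smaller, so part of this gap arose in the normalization. The WT arrays overlapped no KO array, whichever of the WT pair is taken.

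Untreated KO minus WT was -5.07 ± 0.96 log2 for Fgf21 (SE, 95% interval -7.42 to -2.72), with an unadjusted p of 0.0019 and an adjusted p of 0.073 (limma). The difference thus missed the threshold over all probes, although 0.024% of tested probes had a lower one. In both genes the KO arrays lay wholly below the WT arrays, as for 20.4% of tested probes. Neither Fgf21 nor G6pc was called in this comparison, in which 1.13% of tested probes were, and Fgf21 had an unadjusted p under 0.05 (19.8% of tested probes). Because KO did not detect Fgf21, only a bound can be given for the fold. With each KO spot set at 3 times its own noise, an alternative added after the data were seen, the WT mean was at least 11.6-fold higher (3.54 log2). The lower WT array over the higher of the KO floors gave 3.41-fold (1.77 log2). The plain ratio of the means, 33.5-fold, is no bound, since the lowest detected signal of each KO array lay below its Fgf21 spot.

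Over all KO arrays, Fgf21 was 6.23 ± 0.65 (SD, n = 6) against 11.28 ± 1.84 (SD, n = 2) in WT. This difference of -5.04 log2 had p = 0.0357 in a two-sided exact permutation test of the array labels, the smallest p that 28 assignments can give. The test takes treated and untreated KO arrays as exchangeable and independent, which the samples do not establish. All 6 KO arrays were below both WT arrays, as for 10.4% of tested probes (24.9% were separated in either direction). Against WT, the adjusted p was 0.040 after 3 days (-5.22 ± 0.96 log2, SE, 95% interval -7.57 to -2.86) and 0.067 after 4 weeks (-4.84 ± 0.96, -7.20 to -2.49) by limma. Fgf21 was thus called lower than in WT in the mice treated for 3 days, where 5.78% of tested probes were called (2.2% downward). It missed the threshold after 4 weeks (2.27% called). Only 1 of 2 arrays in each treated group detected Fgf21, so the sizes of these differences rest partly on signal below the detection limit. The treated groups did not differ detectably from each other (4 weeks minus 3 days 0.37 log2, adjusted p = 0.96, limma). The 3-day call was lost in 12 of 20 alternatives, including without any 1 array other than WT replicate 2 (adjusted p 0.058 to 0.168), and was at 0.0149 without WT replicate 2. Without WT replicate 2, untreated KO minus WT reached -6.40 log2 (adjusted p = 0.019) and the 4-week difference -6.17 (adjusted p = 0.019), both past the threshold. Without WT replicate 1 they were -3.96 (adjusted p = 0.099) and -3.73 (adjusted p = 0.11), and neither passed. Its direction was the same in all 20 alternatives for each of these comparisons with WT.

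No difference in Fgf21 with norUDCA was detectable within the knockouts, where 4 of 6 arrays did not detect the gene. 3 days minus KO was -0.15 log2 (95% interval -2.50 to 2.20, adjusted p = 0.96) and 4 weeks minus KO was 0.22 (-2.13 to 2.58, adjusted p = 0.98). All treated arrays minus KO gave 0.04 ± 0.83 (SE, 95% interval -2.00 to 2.07, adjusted p = 0.99). These intervals hold differences of about 2 log2 in either direction, so a rise with the drug of that size was not detectable at these signals. Neither untreated KO array detected Fgf21, so a further fall of any size could not have been measured. The intervals thus describe values that lie largely at the noise, and set no bound on a fall. The 4-week minus 3-day difference was 0.37 (-1.98 to 2.72, adjusted p = 0.96).

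**Figure D2:**
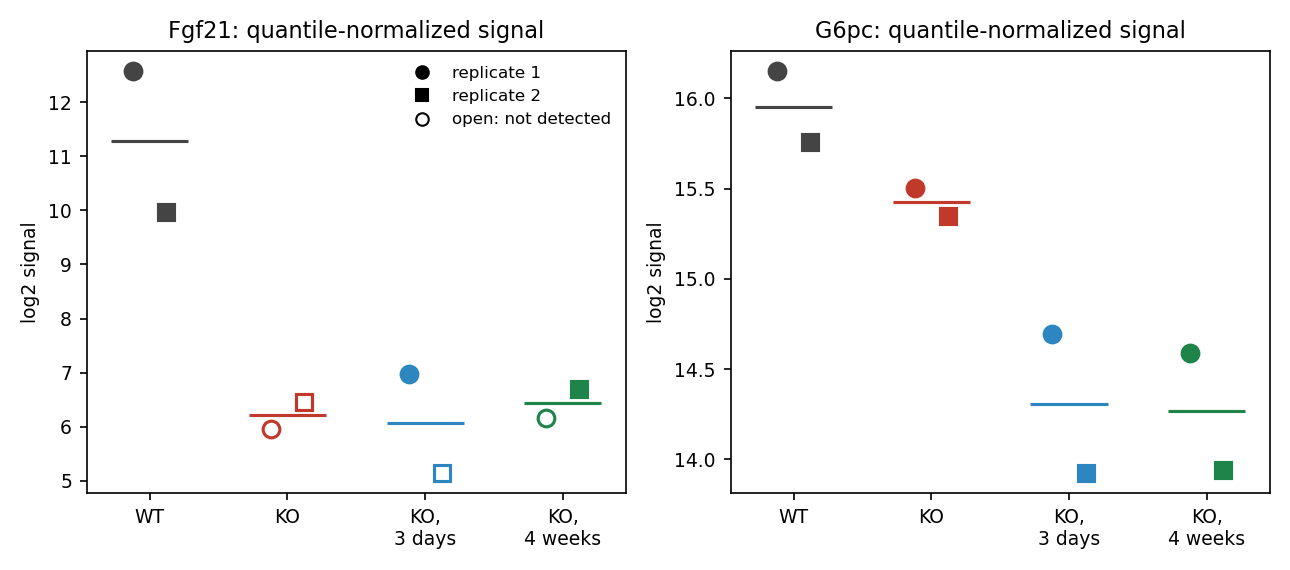
Quantile-normalized log2 signal (vertical axis) of Fgf21 (left) and G6pc (right) by group, with 1 point per array and a line at the mean of each group of 2. Fgf21 was 12.58 and 9.98 in WT and between 5.14 and 6.98 elsewhere, while the 4 G6pc values after norUDCA (13.92 to 14.69) lay below both KO values (15.50 and 15.35).

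G6pc was bright in every sample, and its arrays were lower after norUDCA than in untreated KO. The deposited signal was 30509.61 and 41128.84 in WT, 59268.94 and 42897.6 in KO, 30646.86 and 15220.02 after 3 days, and 38008.26 and 22793.72 after 4 weeks. On this scale before normalization, KO was the highest group, and each treated group had 1 array below both WT arrays. Signal over noise ran from 83.94 to 118.61, so all 8 arrays detected G6pc. On the log2 scale after normalization, it was 16.15 and 15.76 in WT, 15.50 and 15.35 in KO, 14.69 and 13.92 after 3 days, and 14.59 and 13.94 after 4 weeks. Both WT arrays were above both KO arrays, and both KO arrays above all 4 treated arrays. The share of tested probes with this full order was not computed. The replicates of each treated group differed more from each other than the means of those groups did.

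The mean log2 signal of G6pc was 15.95 ± 0.28 (SD, n = 2) for WT and 15.43 ± 0.11 for KO. It was 14.31 ± 0.54 after 3 days of norUDCA and 14.27 ± 0.46 after 4 weeks. All treated arrays minus KO gave -1.14 ± 0.31 log2 (SE, 95% interval -1.90 to -0.38, 2.20-fold lower), with an unadjusted p of 0.011 and an adjusted p of 0.22 (limma). The comparison called 0.197% of tested probes and neither Fgf21 nor G6pc, while 13.6% had an unadjusted p under 0.05. Treated and KO arrays did not overlap downward in 13.5% of tested probes, and 2.67% had a lower difference than G6pc. The exact permutation test of the 4 treated against 2 KO arrays gave p = 0.0667, the smallest that its 15 assignments allow, so this design cannot reach 0.05.

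The treatment lengths gave like values for G6pc. 3 days minus KO was -1.12 ± 0.36 log2 (SE, 95% interval -2.00 to -0.24, adjusted p = 0.23, limma), where 0.233% of tested probes were called. 4 weeks minus KO was -1.16 ± 0.36 (-2.04 to -0.28, adjusted p = 0.45), where 0.0478% were called. Neither passed, and in both G6pc alone of the 2 genes had an unadjusted p under 0.05 (0.021 and 0.018, against 16.1% and 8.75% of tested probes). The direction was the same in all 21 alternatives for each of the 3 comparisons of norUDCA with KO, and 1 of those 21 called the comparison of all treated arrays (a spread trended on mean signal, adjusted p = 0.043). 4 weeks minus 3 days was -0.04 ± 0.36 (-0.92 to 0.84, adjusted p = 0.99), in a comparison that called 0% of tested probes, 0 in number, with 1499 probes (8.96%) at an unadjusted p under 0.05.

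The knockout step of G6pc did not pass the test, and its sign before allowing for the shift of all probes depended on the scaling. KO minus WT was -0.53 ± 0.36 log2 (SE, 95% interval -1.41 to 0.35, adjusted p = 0.47, limma), and 16.7% of tested probes had a lower difference. The difference was -0.12 with arrays scaled to the same median and 0.06 with the deposited assay-normalized intensities and no further normalization. Under these scalings the median of all tested probes was 0.48 and 0.50, against 0.09 in the quantile-normalized data. Relative to that median, the direction was the same, with G6pc at -0.61 after quantile normalization, -0.60 after median scaling and -0.44 in the assay-normalized values. Its treated minus KO difference relative to the median was -1.13, -1.06 and -1.10 in the same order.

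Against WT, G6pc differed by -1.65 ± 0.36 log2 (SE, 3.13-fold lower, 95% interval -2.52 to -0.77, adjusted p = 0.055, limma) after 3 days. After 4 weeks the difference was -1.69 ± 0.36 (3.22-fold lower, -2.57 to -0.81, adjusted p = 0.075). Both missed the threshold, although both genes had an unadjusted p under 0.05 in each comparison (26.6% and 21.2% of tested probes), and in neither did the groups overlap (25.7% and 22.1% of tested probes lay wholly lower). Over all 6 KO arrays, G6pc was 14.67 ± 0.67 (SD, n = 6) against 15.95 ± 0.28 (SD, n = 2) in WT, a difference of -1.29 with p = 0.0714 in the exact permutation test. That test again took treated and untreated KO arrays together, though G6pc was lower on every treated array than in untreated KO. The highest KO array (15.50) lay below the lower WT array (15.76), a separation seen in 10.4% of tested probes.

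**Figure D3:**
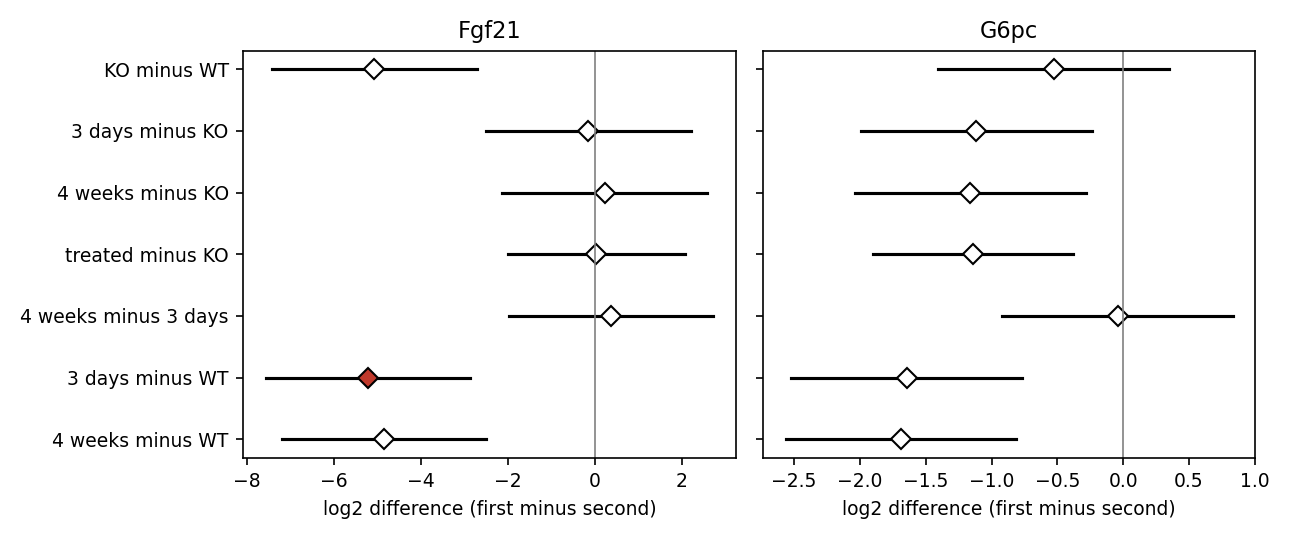
Differences between groups (horizontal axis, log2, first minus second) of Fgf21 (left) and G6pc (right) for 7 comparisons, with 95% intervals of the limma fit as bars. A filled marker is a difference with an adjusted p under 0.05, which only Fgf21 at 3 days minus WT reached (-5.22). The Fgf21 differences within knockouts lie near 0, while all 3 G6pc differences of norUDCA from KO lie between -1.16 and -1.12.

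In a moderated F test over all 4 groups, the adjusted p was 0.084 for Fgf21 and 0.10 for G6pc (limma), where 302 tested probes (1.81%) were called. The largest gap between group means next to each other in order lay between WT and the KO groups for Fgf21 and between untreated and treated KO for G6pc. Whether the genes differ in this was not tested.

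**Figure D4:**
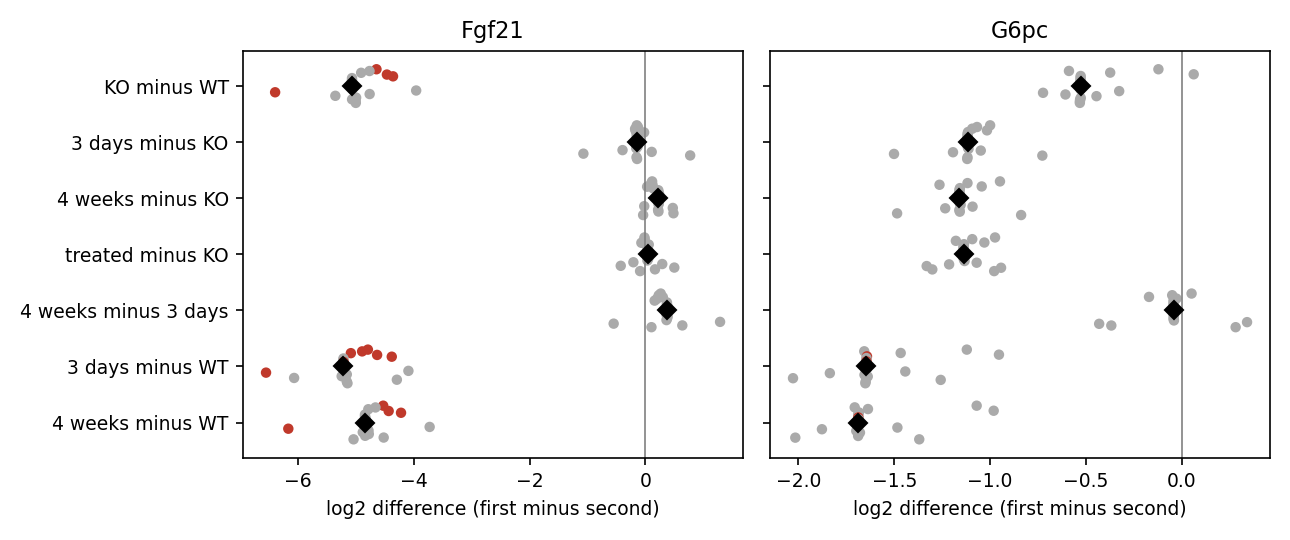
Differences between groups (horizontal axis, log2) of Fgf21 (left) and G6pc (right) under each processing alternative (grey dots, red where the adjusted p was under 0.05) and as reported (black diamonds). KO minus WT of Fgf21 stayed between -6.40 and -3.96, and treated minus KO of G6pc between -1.33 and -0.94.

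Few other genes of the pathways could be read, because most probes of the array carry identifiers that the gene table did not name. Of 181 genes in 8 lists, 4 had a named and tested probe: G6pc and Cebpb on the list of gluconeogenesis and glucose release, and Fgf21 and Aldh3a2 on that of fatty acid oxidation and PPAR alpha targets. Fgf21 was also the only tested gene on the list of FGF21 receptors and the endocrine FGF axis. The lists of glycogen and glycolysis, ketone body synthesis, regulators of Fgf21, insulin and glucagon signalling, and lipogenesis had none. In the comparisons with untreated KO, and in KO minus WT, 0 of these 4 genes were called in either direction (limma). At an unadjusted p under 0.05 there were 2 in KO minus WT (Fgf21 and Cebpb), where 19.8% of tested probes had one. There were 3 in each comparison with untreated KO (G6pc, Aldh3a2 and at least 1 Cebpb probe), against 16.1% of tested probes at 3 days, 8.75% at 4 weeks and 13.6% for all treated arrays. The gluconeogenesis list holds 3 probes of only 2 genes, so its median (-1.32 log2 in KO minus WT and 0.97 in treated minus KO) is the value of the brighter Cebpb probe. In treated minus KO, G6pc at -1.14 and Cebpb had opposite signs, and neither passed. The fatty acid list had medians of -2.47 and 0.45, against 0.09 and -0.01 over all tested probes. Against WT, Fgf21 was the single gene called at 3 days and Aldh3a2 the single gene called at 4 weeks, upward (1.59% of tested probes were called upward).

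Cebpb encodes C/EBP beta, a hepatocyte transcription factor known to act on the G6pc promoter and in the acute phase. Its brighter probe read 15.51 and 16.20 log2 in WT, 14.54 and 14.54 in KO, 16.12 and 15.86 after 3 days, and 14.99 and 15.05 after 4 weeks. Both KO arrays were below all other arrays. Taken singly, KO lay wholly below WT in 20.4% of tested probes, below 3 days in 22.2% and below 4 weeks in 21%. The share of probes with KO below all other arrays at once was not computed. KO minus WT was -1.32 ± 0.27 log2 (SE, adjusted p = 0.082, limma), 3 days minus KO was 1.45 ± 0.27 (adjusted p = 0.10), and 4 weeks minus KO was 0.48 ± 0.27 (adjusted p = 0.68). Its dimmer probe gave -1.39, 1.56 and 0.71 (adjusted p 0.066, 0.082 and 0.50). No Cebpb difference named here passed the threshold, and after 3 days the Cebpb difference from KO was upward while that of G6pc was downward.

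Aldh3a2 encodes the fatty aldehyde dehydrogenase, a known target of PPAR alpha. It read 12.04 and 12.10 log2 in WT, 12.36 and 12.03 in KO, 12.86 and 12.78 after 3 days, and 13.35 and 13.23 after 4 weeks. The 3 steps were ordered without overlap from KO to 3 days to 4 weeks, while WT and KO overlapped. Taken singly, 22.2% of tested probes lay wholly higher after 3 days than in KO. The share wholly higher after 4 weeks than after 3 days was 25.3%. How many probes had both steps at once was not computed. KO minus WT was 0.13 ± 0.20 log2 (SE, adjusted p = 0.77, limma). 4 weeks minus KO was 1.10 ± 0.20 (adjusted p = 0.22), and 4 weeks minus WT was 1.23 ± 0.20 (adjusted p = 0.044), where Aldh3a2 rose. That call was lost in 11 of 21 alternatives (adjusted p up to 0.23), among them those without WT replicate 1 (0.10), either array of the 3-day group (0.085 and 0.089) and either array of the 4-week group (0.23 and 0.20).

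**Figure D5:**
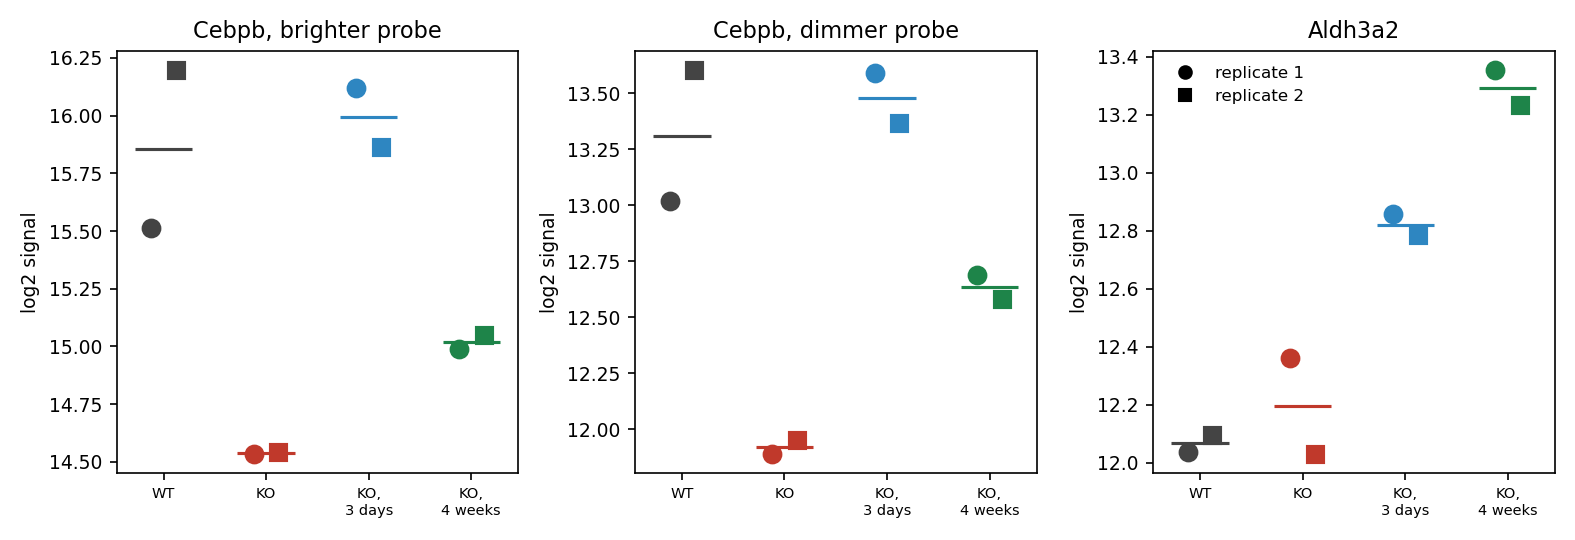
Quantile-normalized log2 signal (vertical axis) of both Cebpb probes and of Aldh3a2 by group, with 1 point per array and a line at the mean of each group of 2. The Cebpb probes are lowest in untreated KO and highest or near the highest after 3 days, and Aldh3a2 is highest after 4 weeks (13.35 and 13.23).

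The samples are bulk liver, in which fewer cells of a type and less RNA per cell cannot be told apart. Of 72 marker genes in 6 cell type lists, 4 had a tested named probe: Mup1 and Dio1 of 19 hepatocyte markers, and Krt23 and Wfdc2 of 13 cholangiocyte markers. The lists of macrophages, stellate cells, endothelium, and lymphocytes and neutrophils had none. Mup1, a urinary protein made by hepatocytes, was between 19.79 and 20.68 log2 on all 8 arrays, and KO minus WT was -0.06 (adjusted p = 0.94, limma). Only 0.010% to 0.073% of gene probes were brighter per array, and quantile normalization leaves little room for a difference there. KO minus WT of Mup1 was -0.45 with arrays scaled to the same median and -0.69 with cyclic loess. It was -0.59 in the assay-normalized values without further normalization, and 0 of 21 alternatives called it. Dio1, the liver deiodinase, was 14.35 and 14.81 in WT, 12.13 and 12.75 in KO, 10.03 and 9.87 after 3 days, and 9.84 and 9.93 after 4 weeks. Dio1 fell in KO minus WT (-2.14 ± 0.29, SE, adjusted p = 0.039, limma) and in treated minus KO (-2.52 ± 0.25, adjusted p = 0.036). The first call was lost in 15 of 21 alternatives (adjusted p up to 0.22), including without any 1 array other than WT replicate 2, and the second in 11 of 21 (up to 0.19), including without any 1 KO or treated array. Krt23, a keratin, was 6.67 and 6.10 in WT, 10.53 and 11.01 in KO, 10.23 and 8.67 after 3 days, and 7.76 and 7.29 after 4 weeks. It rose in KO minus WT (4.38 ± 0.55, adjusted p = 0.035), a call lost in 10 of 20 alternatives (up to 0.19), including without WT replicate 1, either KO array or either 4-week array. Its treated minus KO difference was -2.28 ± 0.47 (adjusted p = 0.14). Wfdc2, a secreted epithelial protein, was 6.88 and 6.93 in WT and between 8.78 and 10.40 on the KO arrays, with KO minus WT at 2.79 ± 0.44 (adjusted p = 0.054). Neither WT array detected Krt23 or Wfdc2, and both WT spots of each were listed at their noise. The sizes of the KO minus WT differences of these genes therefore rest on that noise, not on a measured WT level. All 6 KO arrays detected both, though signal over noise was only 3.16 and 3.20 for Krt23 after 4 weeks. For Wfdc2 it was 3.32 on replicate 2 of the 3-day group. The part of cell composition in the Fgf21 and G6pc differences was not tested.

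Among 155 other named genes with a tested probe, the pattern of Fgf21 over the 8 arrays was most like that of Tcp10b (Pearson r = 0.93, Spearman rho = 0.88), Fam122a (0.91 and 0.83) and 4930433I11Rik (0.91 and 0.55). Fam122a was not detected on WT replicate 1 (signal over noise 2.8), the array where it and Fgf21 both read highest (11.28 and 12.58 log2). Over the 6 KO arrays alone r was 0.46 for Tcp10b and 0.59 for Fam122a, with Fgf21 itself detected on only 2 of those 6. For 4930433I11Rik none is given: this probe was detected on only 2 of the 8 arrays, WT replicate 1 and 3-day replicate 2 (signal over noise 3.04). Its values elsewhere were under the detection limit, that of WT replicate 2 narrowly (2.96). Both of its correlations over the 8 arrays, here and with G6pc below, rest on those same values. The pattern of G6pc was most like that of Dio1 (r = 0.91, rho = 0.88), Ddx28 (0.88 and 0.83) and again 4930433I11Rik (0.88 and 0.90). Over the 6 KO arrays r was 0.86 for Dio1 and 0.77 for Ddx28, and that of 4930433I11Rik is again left out. The arrays share group and normalization, and between 0.329% and 1.08% of all tested probes had an r as high as these genes had with their member. The correlations are given as descriptions, with no test.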

How the data were processed

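Single-colour arrays of liver RNA from 8 mouse samples were used as deposited, with groups from the labels. Per the file headers, each spot has a signal, an intensity on a linear scale with background removed, an assay-normalized intensity, a noise and a signal-to-noise score, which was taken as deposited. A spot at or under its noise is listed at its noise (107688 of 264096 gene spots). The sources used here do not name the image software.

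From these, 28859 gene probes without a flag of 5000 or more were log2-transformed and then quantile-normalized between arrays (4153 were left out). Tests covered the 16728 of them that 2 or more arrays detected (score of at least 3) and used limma 3.58.1 in R 4.3.3, with 4 groups sharing the spread (4 residual and 1.96 prior degrees of freedom). The fit was tested on simulated data. Names came from RefSeq accessions of GRCm38.p6 (311 probes of 305 genes named, 158 probes of 156 genes tested). Members and lists were chosen with earlier results of these data known. The genes named are the members, all list genes with a tested named probe, and the 3 named genes most correlated with each member. Slide and scan date were not analysed here. Replicate numbers came from the titles. The titles do not say that equal numbers pair samples. The deviations of same-numbered arrays correlated between -0.04 and 0.03, which does not settle whether they share a litter or day. Alternatives changed normalization, filter, offset, the fit and the arrays included.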

Additional observations from a re-analysis of the deposited data

Results flagged for a closer look

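The positive control spots, which no comparison used, were brighter on every KO array than on the WT arrays: the dimmest KO array was 2.96 times the brighter WT array (median signal of 129 spots). Before normalization, Fgf21 was brighter on both WT arrays than on every KO array, and G6pc was brighter on both untreated KO arrays than on both WT arrays. After normalization, both genes were highest on the WT arrays. The part of the control spot difference in the Fgf21 and G6pc differences from WT was not tested.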

How the results depend on the processing

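The comparisons with untreated KO and WT rest on 2 arrays a group, and 4 of the 6 KO arrays did not detect Fgf21. Counts below are tested probes called in KO minus WT (189 as reported), 3 days minus KO (39), 4 weeks minus KO (8), treated minus KO (33), 4 weeks minus 3 days (0), 3 days minus WT (967) and 4 weeks minus WT (379), and each adjusted p is from limma. Where a call or sign changed, the cause was not tested.

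With arrays scaled to the same median, Fgf21 was called in KO minus WT (-4.65, adjusted p = 0.011) and 4 weeks minus WT (-4.53, adjusted p = 0.0098), its treated minus KO difference was -0.0158, G6pc 4 weeks minus 3 days was 0.0514, and the dimmer Cebpb probe was at 0.0111 in 4 weeks minus WT. Counts were 303 (251 upward, 52 downward, against 136 and 53 as reported), 90, 43, 83, 11 and, for 4 weeks minus WT, 982 (847 and 135, against 266 and 113), while 3 days minus WT split 1042 to 190 (against 599 to 368). With cyclic loess, Fgf21 treated minus KO was -0.0125, and KO minus WT and 4 weeks minus WT had 62 and 214 calls. With assay-normalized intensities and quantile normalization, Fgf21 treated minus KO was -0.0270, and the 3 comparisons with KO had 3, 2 and 7 calls. Without that normalization, Fgf21 was -4.46 in KO minus WT (adjusted p = 0.038), -4.43 in 4 weeks minus WT (adjusted p = 0.026) and -0.0694 in treated minus KO, and G6pc was 0.0625 in KO minus WT. Counts were 342 (291 and 51), 15, 17, 1 for 4 weeks minus 3 days, and 1338 (1205 and 133) for 4 weeks minus WT. With an offset of 50, Fgf21 was called in KO minus WT (-4.36, adjusted p = 0.050) and 4 weeks minus WT (-4.22, adjusted p = 0.044), and G6pc in 3 days minus WT (-1.64, adjusted p = 0.039). Counts were 341, 131, 26 and 76 for KO minus WT and the comparisons with KO.

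With no filter, Fgf21 3 days minus WT was not called (-5.22, adjusted p = 0.072), and counts were 9, 0, 0, 3, then 203 and 40 against WT. With probes detected on at least 1 array (-5.22, adjusted p = 0.053), they were 108, 1, 4, 4, 531 and 211. With probes detected on all 8 arrays, which leaves out Fgf21, G6pc was called in 3 days minus WT (-1.65, adjusted p = 0.013) and 4 weeks minus WT (-1.69, adjusted p = 0.021), and counts were 663, 626, 59, 361, 16, 1783 and 801. With only the groups compared in the fit, Fgf21 3 days minus WT was not called (-5.22, adjusted p = 0.15), and counts were 0, 0, 3, 64, 0, 0 and 0. With array weights (-5.22, adjusted p = 0.052), they were 33, 93, 20, 60, 0, 498 and 237. With the spread trended on mean signal, Fgf21 was called in KO minus WT (-5.07, adjusted p = 0.017) and 4 weeks minus WT (-4.84, adjusted p = 0.015), and G6pc in treated minus KO (-1.14, adjusted p = 0.043), 3 days minus WT (-1.65, adjusted p = 0.0064) and 4 weeks minus WT (-1.69, adjusted p = 0.0093). Counts were 911, 677, 118, 445, 47, 2236 and 1248. Samples of equal number are not stated to share an animal, litter or day. With the replicate block, Fgf21 3 days minus WT was not called (-5.22, adjusted p = 0.064), and counts were 7, 0, 0, 0, 0, 261 and 68. Keeping flagged probes changed no call of either gene.

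Leaving out 1 array at a time, counts ran from 1 to 1080, 0 to 45, 0 to 17, 0 to 66, 0 throughout, 3 to 1810 and 0 to 1293. For Fgf21, KO minus WT ran from -6.40 to -3.96, 3 days minus KO from -1.07 to 0.77, 4 weeks minus KO from -0.0389 to 0.49, treated minus KO from -0.43 to 0.50, 4 weeks minus 3 days from -0.55 to 1.29, 3 days minus WT from -6.55 to -4.09 and 4 weeks minus WT from -6.17 to -3.73. G6pc 4 weeks minus 3 days ran from -0.43 to 0.34, Mup1 KO minus WT from -0.38 to 0.22, and Aldh3a2 KO minus WT from -0.0354 to 0.29.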

Other observations

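On the slide, the tested spots within 3 rows and columns of Fgf21 (24 spots) had a median KO minus WT difference of 0.14 log2 (-3.58 to 1.76), against -5.07 for Fgf21. Those around G6pc (19 spots) had a median treated minus KO difference of 0.06 (-1.41 to 0.57), against -1.14 for G6pc.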
